A study of Homo sapiens with 14 samples.

Results

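The mitochondrial ribosomal protein genes (MRP genes, whose symbols begin with MRPL or MRPS and a digit) were described in 14 RNA-seq libraries of CHP-134, an established human neuroblastoma cell line in which MYCN is amplified. Membership followed the symbol alone and used no values, but the set was chosen with earlier results of these data known. In all, 76 genes (80 Ensembl identifiers) of 19726 identifiers matched. Of these, 75 genes were in the table of the OmoMYC experiment and 76 in that of the parental experiment. In the first experiment, engineered CHP-134 cells carrying a lentiviral, doxycycline-inducible EGFP (3 libraries) or OmoMYC (3 libraries) transgene received 1 µg/ml doxycycline for 3 days, so that both groups share the drug, the vector and medium with tetracycline-approved serum. In the second, parental CHP-134 cells without a transgene received 500 nM dTAG47 (4 libraries) or the DMSO vehicle (4 libraries) for 18 hours in medium with normal serum. OmoMYC is a dominant-negative derivative of MYC with an altered leucine zipper, which takes up MAX and E-box sites in place of MYC proteins, and dTAG47 is a degrader of proteins fused to a specific tag, for which the parental cells are an untagged control. The transduced cells were selected for drug resistance, so EGFP and OmoMYC cells are separate lines, and a difference between the lines that precedes induction cannot be told apart from an effect of OmoMYC.

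Mitochondria have ribosomes of their own, which translate only the few mRNAs made from the mitochondrial genome, all of them for core subunits of the respiratory chain and the ATP synthase. Every protein of these ribosomes is encoded in the nucleus, made in the cytosol and imported. The small subunit reads the mRNA and the large subunit joins the amino acids; some of the proteins descend from the bacterial ribosome and others were acquired by mitochondria. MYC proteins are known activators of genes for ribosomes and mitochondria in growing cells. Some symbols mislead: MRPS30 and MRPS18A are proteins of the large subunit, and MRPS36 is a component of the 2-oxoglutarate dehydrogenase complex rather than of the ribosome.

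Values are given as CPM, the count of a gene scaled to its library's total after TMM normalization. The libraries held 28060817 to 38358128 counts in the OmoMYC experiment and 40861430 to 53451641 in the parental one. Genes were tested with edgeR's quasi-likelihood test, and those with a Benjamini-Hochberg adjusted p-value (FDR) below 0.05 over all tested genes are called. The study's methods call the libraries biological replicates without saying how the cultures were separated, and the p-values measure the spread between these libraries. CPM is a share of the library's counts, from which less RNA per cell and fewer cells with the transcript cannot be told apart. The OmoMYC libraries fit their label: reads assigned to MYC, from which OmoMYC derives, rose from 0.610 ± 0.0684 to 522 ± 7.85 CPM (mean ± SD, n = 3). MYCN was at 2713 ± 266 CPM under EGFP and 2240 ± 66.0 CPM under OmoMYC. The dTAG47 label was not checked in this way, as the parental cells hold no tagged protein. Between 7 and 8 of 9 neuroblastoma markers reached 1 CPM in each group, whereas summed leukocyte markers stayed at or below 1.97 CPM, endothelial markers at or below 2.29 CPM and fibroblast markers between 26.8 and 93.1 CPM.

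MRP genes were more often lower than higher in OmoMYC cells than in EGFP cells. Of the 74 tested, 34 were lower (45.9%, against 25.7% of all 13803 tested genes), 3 were higher (against 27.3% of all genes) and 37 were not called. The median log2 fold change of the members was -0.19, against 0.01 for all tested genes, and 60 of the 74 values were negative. The groups did not overlap in 41 members, with all OmoMYC libraries lower in 37 and all higher in 4, against 30.3% and 32% of all genes. Summed over the members, the level was 4160 to 4376 CPM in the EGFP libraries (4279 ± 109.5, SD, n = 3) and 3679 to 3819 CPM in the OmoMYC libraries (3756 ± 71.0), a share of 0.426% against 0.377% of all counts. The groups did not overlap, and the exact permutation test gave p = 0.1, the smallest it can give with 3 libraries against 3.

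**Figure D1:**
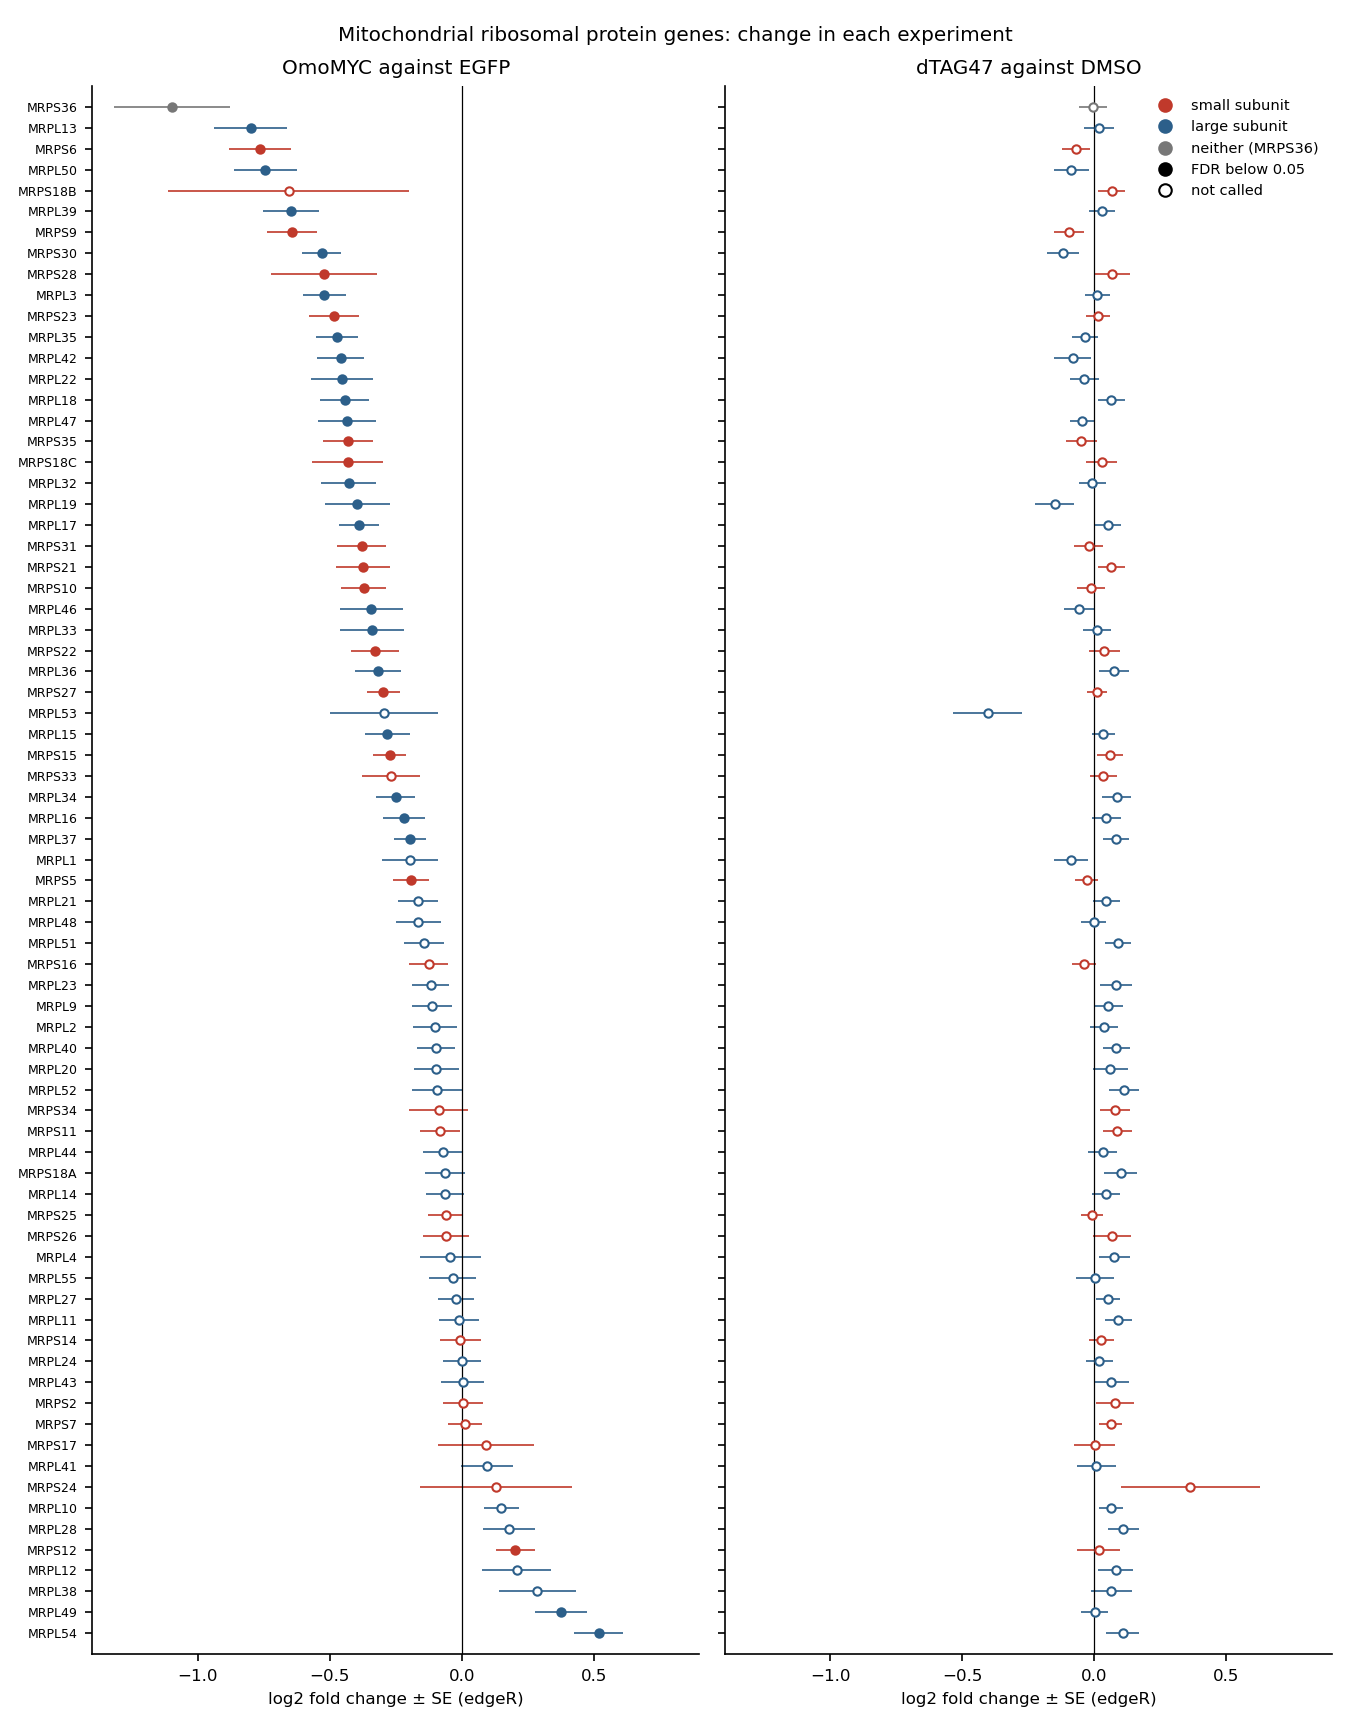
Log2 fold change with its standard error for each tested MRP gene (rows, ordered by the change under OmoMYC) in OmoMYC against EGFP (left, n = 3 and 3) and dTAG47 against DMSO (right, n = 4 and 4). Filled points passed an FDR of 0.05: 34 lower and 3 higher on the left, none on the right; red marks the small subunit, blue the large subunit, grey MRPS36.

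Calls were made in both subunits. In the small subunit, 13 of 26 tested members were lower and 1 was higher, with a median log2 fold change of -0.27. In the large subunit, 20 of 47 were lower and 2 were higher, with a median of -0.16. Among members with a bacterial homologue, 22 of 44 were lower and 1 was higher (median -0.19), and among those specific to mitochondria 11 of 29 were lower and 2 were higher (median -0.16). These differences between classes were not tested. The genes lie on 21 chromosomes, with at most 8 on any of them.

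The largest falls were seen in genes of both subunits. MRPL13 (large subunit, homologue of bacterial L13; hg19 chr8:121393000-121457642) was at 45.4, 35.5 and 29.7 CPM in the EGFP libraries and 21.4, 22.7 and 19.4 CPM in the OmoMYC libraries. Its log2 fold change was -0.80 ± 0.14 (SE; edgeR FDR = 0.000882), to 0.575 of the EGFP level. MRPS6 (small subunit, homologue of bacterial S6; chr21:35445524-35515334) was at 40.4, 34.4 and 29.2 CPM under EGFP and 20.0, 22.2 and 19.0 CPM under OmoMYC, with a log2 fold change of -0.76 ± 0.12 (edgeR FDR = 0.00044). In both genes the groups were well apart, and the spread was wider among the EGFP libraries. MRPL50, a mitochondria-specific protein of the large subunit (chr9:104149915-104160900), was at 53.9 ± 9.59 CPM under EGFP and 32.2 ± 2.42 CPM under OmoMYC (log2 fold change -0.74 ± 0.12, edgeR FDR = 0.000584). MRPL39, another protein specific to mitochondria (chr21:26957968-26979829), fell from 34.8 ± 4.43 to 22.2 ± 1.46 CPM (log2 fold change -0.65 ± 0.10, edgeR FDR = 0.000577). MRPS9, the homologue of bacterial S9 (chr2:105654527-105716418), was at 40.2, 36.7 and 34.2 CPM under EGFP and 22.7, 26.1 and 22.3 CPM under OmoMYC (log2 fold change -0.64 ± 0.09, edgeR FDR = 0.000314).

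Falls of this kind also reached abundant members. MRPS30 (large subunit, chr5:44809049-44820530) was at 121, 113 and 105 CPM in the EGFP libraries and 77.4, 80.6 and 77.0 CPM in the OmoMYC libraries, a log2 fold change of -0.53 ± 0.07 (edgeR FDR = 0.000235). MRPL3, a homologue of bacterial L3, which lies near the site of peptide bond formation (chr3:131181056-131221827), was at 187, 172 and 157 CPM under EGFP and 121, 127 and 112 CPM under OmoMYC (log2 fold change -0.52 ± 0.08, edgeR FDR = 0.000457). In both, the lowest EGFP library stood well above the highest OmoMYC library. MRPS36, the dehydrogenase component, had the lowest log2 fold change of all members that were called (-1.10 ± 0.22, edgeR FDR = 0.00205), from 113 to 381 counts per library. The size of this fall depended on 1 high EGFP library: the values were 12.02, 6.98 and 6.37 CPM under EGFP and 3.85, 4.20 and 3.82 CPM under OmoMYC. Without EGFP replicate 1 its log2 fold change was -0.77. MRPS36 stayed lower whichever library was left out, with edgeR FDRs of at most 0.0107.

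A further 22 members were lower, besides MRPS15, MRPS22, MRPL37 and MRPS18C, which are described with their roles. In the small subunit these 8 were, with their log2 fold changes, MRPS28 (-0.52), MRPS23 (-0.48), MRPS35 (-0.43), MRPS31 (-0.38), MRPS21 (-0.37), MRPS10 (-0.37), MRPS27 (-0.30) and MRPS5 (-0.19). In the large subunit the 14 were MRPL35 (-0.47), MRPL42 (-0.46), MRPL22 (-0.45), MRPL18 (-0.44), MRPL47 (-0.43), MRPL32 (-0.43), MRPL19 (-0.39), MRPL17 (-0.39), MRPL46 (-0.34), MRPL33 (-0.34), MRPL36 (-0.32), MRPL15 (-0.28), MRPL34 (-0.25) and MRPL16 (-0.22). MRPS23 was at 136, 125 and 104 CPM under EGFP and 88.1, 86.5 and 86.9 CPM under OmoMYC (± 0.09 SE, edgeR FDR = 0.00168), and MRPL42 at 148, 135 and 119.8 CPM and 101.5, 101.4 and 90.3 CPM (± 0.09 SE, edgeR FDR = 0.0017). In MRPS28, MRPL46 and MRPL33 the groups overlapped although the call was made: MRPS28 was at 16.9, 12.3 and 8.58 CPM under EGFP and 8.87, 9.34 and 8.09 CPM under OmoMYC (edgeR FDR = 0.0471). The lower calls of MRPL16, MRPL19, MRPL33, MRPL34, MRPL36, MRPL37, MRPL46, MRPS5, MRPS18C and MRPS28 were lost when 1 of the libraries other than EGFP replicate 3 was left out; without EGFP replicate 1 the only lower call lost was that of MRPS28. The 37 members that were not called had log2 fold changes from -0.65 (MRPS18B) to 0.29 (MRPL38), and MRPS33 was at -0.27 with an edgeR FDR of 0.0608 and with groups that did not overlap.

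The 3 members that rose did so by less than 1.5-fold. MRPL54, a large subunit protein specific to mitochondria (chr19:3762680-3768573), was at 27.9, 29.4 and 34.3 CPM in the EGFP libraries and 44.0, 41.4 and 45.8 CPM in the OmoMYC libraries. Its log2 fold change was 0.52 ± 0.09 (edgeR FDR = 0.00104). MRPL49, also of the large subunit and specific to mitochondria (chr11:64889655-64894843), was at 47.8, 58.6 and 62.9 CPM under EGFP and 75.3, 70.6 and 74.0 CPM under OmoMYC (log2 fold change 0.38 ± 0.10, edgeR FDR = 0.0086). For both genes all OmoMYC libraries were above all EGFP libraries. MRPS12, the homologue of bacterial S12 at the decoding site (chr19:39421584-39423808), rose from 41.8 ± 1.93 to 48.1 ± 1.33 CPM (log2 fold change 0.20 ± 0.07, edgeR FDR = 0.039). This call was the least firm of the 3: it was lost under DESeq2 (FDR = 0.0519) and when any library except EGFP replicate 3 was left out (FDR 0.0717 to 0.163).

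**Figure D2:**
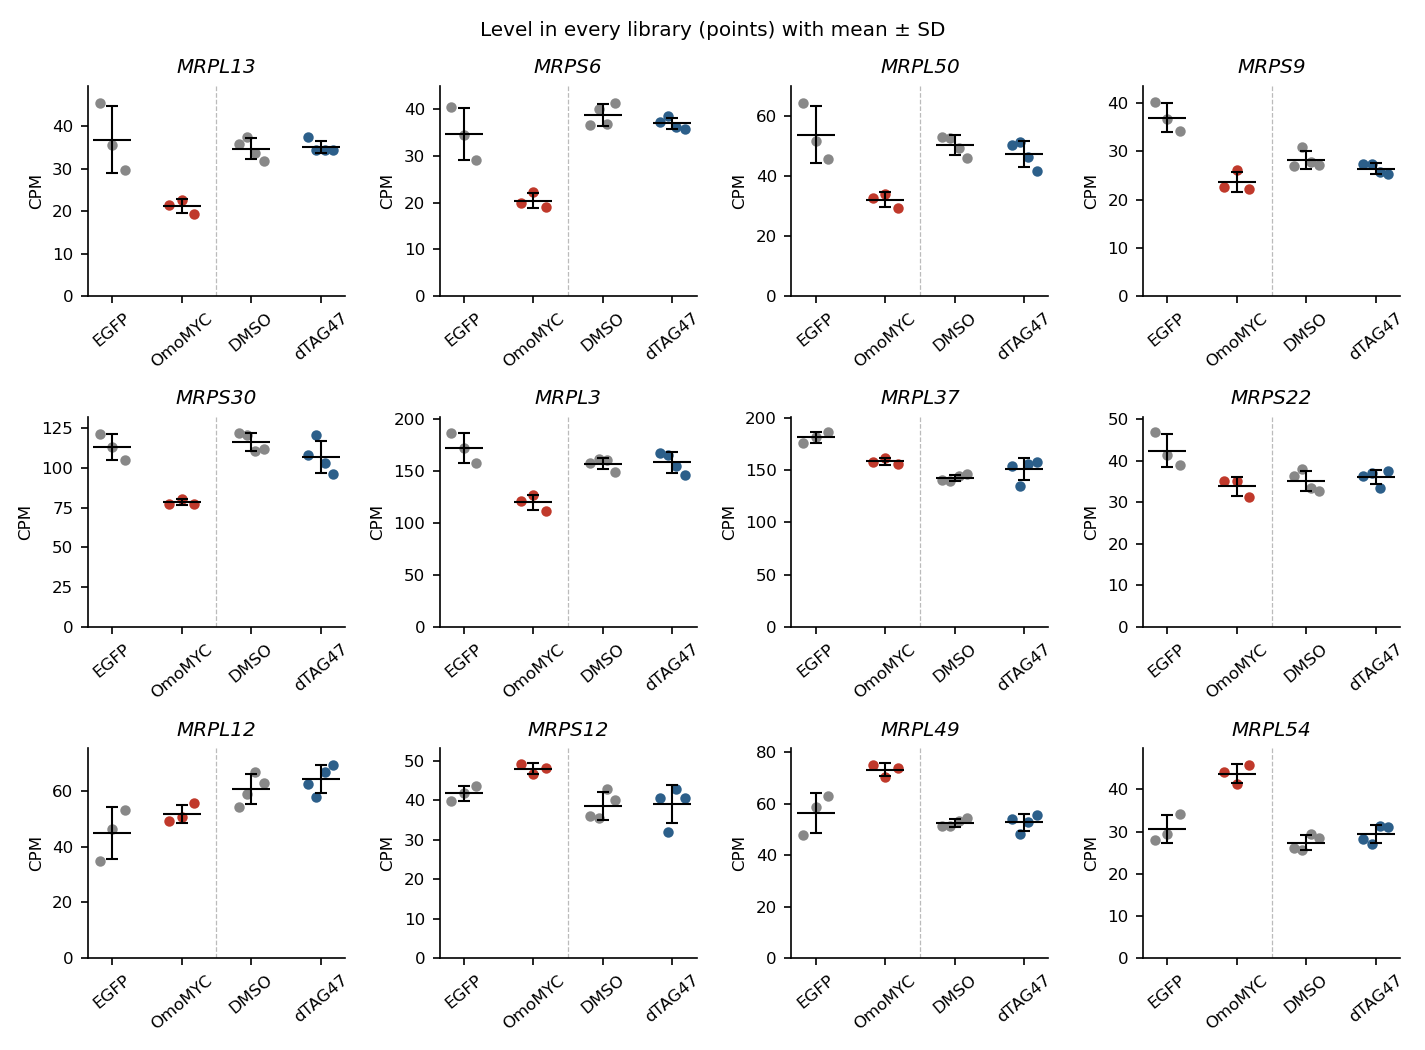
CPM of 12 MRP genes in every library (points) with the mean and SD of each group (bars); grey, EGFP or DMSO; red, OmoMYC; blue, dTAG47; axes start at 0. MRPL13, MRPS6, MRPL50, MRPS9, MRPS30, MRPL3, MRPL37 and MRPS22 lie lower in every OmoMYC library than in any EGFP library, MRPS12, MRPL49 and MRPL54 lie higher, MRPL12 overlaps, and no pair of dTAG47 and DMSO groups is apart.

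Of the 4 most abundant members per length, 1 was lower and the others were not called. Per kilobase of transcript, MRPS15 was highest in EGFP cells (174 CPM per kb), followed by MRPL27 (154), MRPS34 (147) and MRPS7 (128), against a median of 35.2 over the tested members. MRPS15, the homologue of bacterial S15, fell from 165.6 ± 4.34 to 137 ± 4.83 CPM (log2 fold change -0.27 ± 0.06, edgeR FDR = 0.0049). MRPL27 (log2 fold change -0.02 ± 0.07), MRPS34 (-0.09 ± 0.11) and MRPS7 (0.01 ± 0.06) were not called. Without EGFP replicate 1, MRPS34 was at -0.23 and lower (edgeR FDR = 0.0078). MRPS7 was at 152, 156 and 155 CPM under EGFP and 161, 157 and 148 CPM under OmoMYC, with overlapping groups.

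Members known for other reasons were split in the same way. MRPL12, the homologue of the bacterial stalk protein L7/L12 that also binds the mitochondrial RNA polymerase, was at 35.0, 46.6 and 53.3 CPM under EGFP and 49.5, 50.6 and 55.7 CPM under OmoMYC and was not called (log2 fold change 0.21 ± 0.13, edgeR FDR = 0.205). Its value ranged from 0.039 without EGFP replicate 1 to 0.32 without EGFP replicate 3, where it was higher (edgeR FDR = 0.0205), and with a replicate block it was also higher (edgeR FDR = 0.0315). MRPS22 and MRPL44 are both mutated in inherited mitochondrial disease. MRPS22 fell from 42.4 ± 4.03 to 33.8 ± 2.26 CPM (log2 fold change -0.33 ± 0.09, edgeR FDR = 0.012), while MRPL44 was at 37.3 ± 1.40 and 35.5 ± 1.11 CPM (-0.07 ± 0.07, edgeR FDR = 0.441). MRPL37, a relative of MRPS30, fell from 181 ± 5.30 to 158 ± 3.13 CPM (-0.20 ± 0.06, edgeR FDR = 0.0218). Of the 3 human relatives of bacterial S18, MRPS18C fell (16.3 ± 3.16 to 12.1 ± 0.832 CPM, log2 fold change -0.43 ± 0.14, edgeR FDR = 0.0204), MRPS18A was not called (-0.06 ± 0.08, edgeR FDR = 0.494), and MRPS18B was barely counted in this table, as described for the control levels.

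Promoter sequence was looked at because 34 members were lower and the E-box is the known site of MYC proteins. RefSeq promoter windows on GRCh38.p14, from 250 bases before to 50 bases after the start, were matched by symbol for 67 of the 76 genes, and 4 motifs were searched on both strands. The E-box bound by MYC proteins, CACGTG, was found in 9 of 67 members (13.4%) and in 12.6% of 10215 tested genes with a window. Among members it was in 4 of 29 that were lower and in 4 of 36 other tested members. The ETS family motif CCGGAAG was in 29 members (43.3%, against 20.7% of genes), 11 of the 29 lower ones and 17 of the 36 others. The YY1 motif, searched as its core ATGGCGG, was in 23 members (34.3%, against 11.7% of genes), 14 of the 29 lower ones and 9 of the 36 others; 12.7% of all genes called lower had it. The NRF1 motif, searched as the partial site GCGCATG, was in 7 members (10.4%, against 8.5% of genes), 4 of the lower ones and 3 of the others. The NRF1 and YY1 letters can share the bases ATG, the YY1 letters past the start can also hold a start codon, and a match is a description of letters, not of binding. The windows below show an E-box in members that fell (MRPL22, MRPL37) and rose (MRPL49), an ETS motif in members that fell (MRPS22, MRPL3) and rose (MRPS12, MRPL54, there as the reverse complement), and a YY1 motif in members that fell (MRPS30, MRPL42); capitals mark the motif, and the sequences are from RefSeq, 5′ to 3′ on the strand of the gene.
MRPL22, chr5:154940857-154940942, plus strand, E-box from position -176: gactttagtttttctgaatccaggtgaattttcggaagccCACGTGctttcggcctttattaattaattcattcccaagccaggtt
MRPL37, chr1:54199957-54200042, plus strand, E-box from position -170: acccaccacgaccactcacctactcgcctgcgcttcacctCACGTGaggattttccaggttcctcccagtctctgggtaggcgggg
MRPL49, chr11:65121933-65121983, plus strand, E-box from position -245: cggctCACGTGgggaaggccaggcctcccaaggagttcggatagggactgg
MRPS22, chr3:139343867-139343953, plus strand, ETS motif from position -87: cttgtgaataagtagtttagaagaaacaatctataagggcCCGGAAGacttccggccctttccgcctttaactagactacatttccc
MRPL3, chr3:131502957-131503043, minus strand, ETS motif from position -32: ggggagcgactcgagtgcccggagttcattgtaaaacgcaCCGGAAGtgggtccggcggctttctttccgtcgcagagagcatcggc
MRPS12, chr19:38930899-38930973, plus strand, ETS motif from position -5: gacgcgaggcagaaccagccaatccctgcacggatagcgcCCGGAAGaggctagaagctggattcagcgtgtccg
MRPL54, chr19:3762621-3762707, plus strand, ETS motif from position -21: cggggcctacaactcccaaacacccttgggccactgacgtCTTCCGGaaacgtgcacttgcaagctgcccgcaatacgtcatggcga
MRPS30, chr5:44808923-44808976, plus strand, YY1 motif from position 17: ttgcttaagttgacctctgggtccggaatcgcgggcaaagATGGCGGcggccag
MRPL42, chr12:93467485-93467543, plus strand, YY1 motif from position 12: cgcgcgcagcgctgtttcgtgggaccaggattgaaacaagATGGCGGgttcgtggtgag
MRPL22 carries the E-box, YY1 and NRF1 letters and fell from 37.6, 34.7 and 27.5 CPM under EGFP to 25.2, 25.7 and 22.0 CPM under OmoMYC, whereas MRPL49 carries an E-box and rose. Of the members with an E-box, MRPL22, MRPL36, MRPL37 and MRPS18C were lower, only MRPL49 was higher, and the other tested ones were not called. The share of members with an E-box was close to that of all genes, and a role of the E-box was not tested.

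The change of a member moved with the GC content of its transcript, as did that of all genes. Across genes, which are not independent replicates and share these 6 libraries, the Spearman correlation of log2 fold change with GC was 0.715 over the 74 members and 0.485 over 13649 genes. Among the 25 members of lowest GC (up to 44.9%), 21 were lower and 0 were higher, with a median of -0.43, against 46.5% lower, 552 of 5041 higher and a median of -0.24 in all genes of that GC. Of the 24 in the middle (up to 52.8%), 10 were lower and 0 were higher, with a median of -0.16, against 23.2% lower, 811 of 3333 higher and a median of 0.01 in all genes. Among the 25 of highest GC, 3 were lower and 3 were higher, with a median of -0.02, against 7.4% lower, 2380 of 5275 higher and a median of 0.27 in all genes. The members' median was thus below that of all genes in each range of GC.

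**Figure D3:**
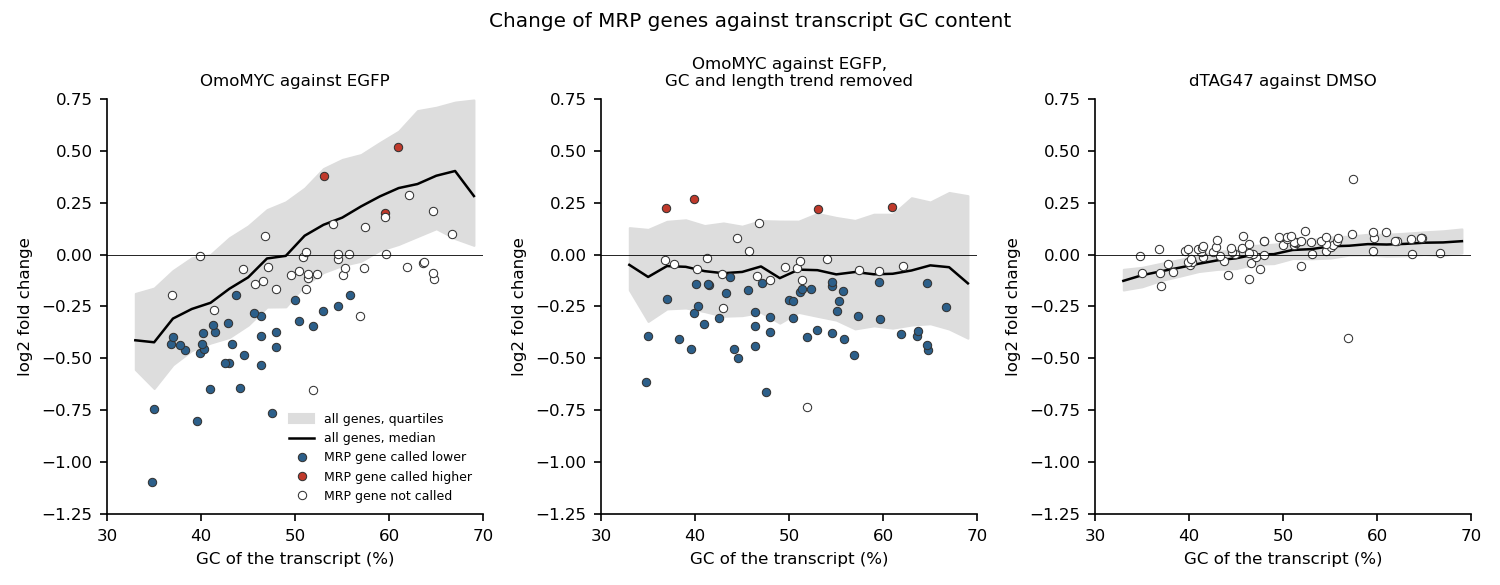
Log2 fold change of MRP genes (points) against the GC content of the transcript (%), with the median (line) and quartiles (grey) of all tested genes in steps of GC, for OmoMYC against EGFP, the same after removal of the GC and length trend from each library, and dTAG47 against DMSO. Under OmoMYC the points rise with GC, and most lie beneath the line of all genes, with MRPL49 and MRPL54 among those above it. After removal 50 points are called lower and 4 higher. Under dTAG47 the slope is slight and none is called.

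EGFP replicates differed among themselves in the same tilt with GC. Measured as the difference between members of the highest and the lowest GC on the log2 scale, relative to the EGFP mean, it was -0.26, 0.03 and 0.24 in EGFP replicates 1, 2 and 3 and 0.41, 0.36 and 0.49 in the OmoMYC libraries. All genes gave -0.30 to 0.26 and 0.42 to 0.63. When a trend on GC and transcript length was removed from each library, 50 members were lower (against 39.1% of all genes) and 4 were higher (against 22.3%). Of the 34 lower calls, 28 were kept, and MRPL33, MRPL47, MRPS18C, MRPS22, MRPS28 and MRPS31 were lost. The median of all genes moved to -0.08 in that fit, where lower genes were 63.7% of all calls in place of 48.5%, and the members' median was -0.20, or 0.12 below it. MRPL13 (-0.45), MRPS6 (-0.66), MRPL50 (-0.39), MRPL39 (-0.33), MRPS9 (-0.46), MRPS30 (-0.44) and MRPL3 (-0.30) stayed lower, and MRPL49 (0.22) and MRPL54 (0.23) stayed higher. MRPS12 turned to -0.077 and was not called (edgeR FDR = 0.192), and MRPL12 turned to -0.14 and was lower (edgeR FDR = 0.0465). MRPS34 (-0.44) and MRPL27 (-0.15), at the top of the order of levels, were also lower in that fit.

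**Figure D4:**
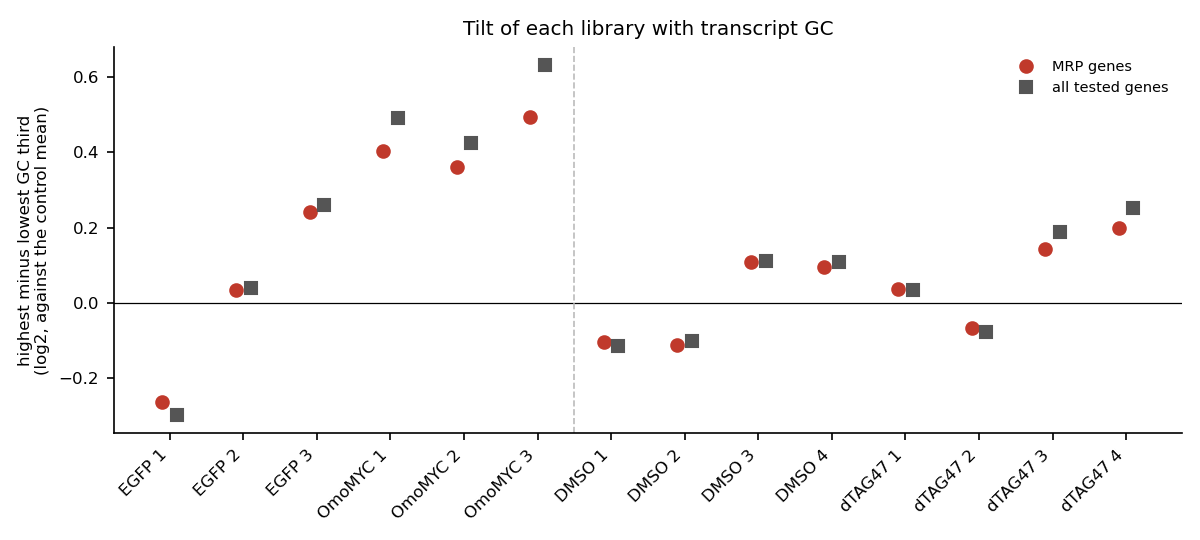
Difference in log2 level between the genes of highest and lowest GC content in each library, relative to the mean of the control libraries of its experiment, for MRP genes (circles) and all tested genes (squares). EGFP replicates run from -0.26 to 0.24 for MRP genes and OmoMYC replicates from 0.36 to 0.49; the parental libraries run from -0.11 to 0.20.

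The same list was compared with other genes that serve mitochondrial translation, from lists written from general knowledge. Of 7 mitoribosomal proteins whose symbols lie outside the MRPL and MRPS pattern, 4 were lower and 0 higher under OmoMYC, with a median of -0.22. CHCHD1 (-0.57 ± 0.15), PTCD3 (-0.46 ± 0.08), DAP3 (-0.28 ± 0.07) and MRP63, also known as MRPL57 (-0.22 ± 0.08), were lower on the log2 scale. ICT1 (-0.17 ± 0.07), a ribosome rescue factor built into the large subunit, GADD45GIP1 (-0.09 ± 0.09) and AURKAIP1 (0.28 ± 0.13) were not called. PTCD3 was at 159, 142 and 134 CPM in the EGFP libraries and 106, 108 and 102 CPM in the OmoMYC libraries, so the groups did not overlap.

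Among factors that build and serve the ribosome, the shares of lower genes were nearer to the 25.7% of all genes. Few or none in each list were higher, against 27.3% of all genes. The median change of the translation factors was nonetheless below the -0.19 of the MRP genes. Their median transcript GC was 43.6%, against 48.8% for the MRP genes, and the lists were not compared at like GC. Of 26 tested assembly factors, 8 were lower (30.8%) and 1 was higher (median log2 fold change -0.08). The largest falls were those of TFB1M, which methylates the small subunit rRNA (-0.75 ± 0.15), and MALSU1, an assembly factor of the large subunit (-0.50 ± 0.11), and the rise was that of TRUB2 (0.28 ± 0.08), a pseudouridine synthase. Of 17 translation and mRNA handling factors, 6 were lower (35.3%) and 0 were higher (median -0.23), led by SLIRP, a partner of LRPPRC in stabilizing mitochondrial mRNA (-0.60 ± 0.09), and GUF1, a ribosome-binding GTPase (-0.50 ± 0.08). Among 19 tRNA synthetases and related enzymes of mitochondria, 6 were lower (31.6%) and 0 were higher (median -0.04), with NARS2, which charges tRNA with asparagine, at -0.50 ± 0.09. The templates of the mitochondrial ribosome moved the other way: of 13 mRNAs encoded in mitochondrial DNA, 0 were lower and 10 were higher (median 0.50). Of all genes, 27.3% were higher. The higher calls among these mRNAs ran from 7 without OmoMYC replicate 2 to 13 without EGFP replicate 1. In cytosolic ribosomal proteins, 27 of 73 were lower (37%) and 3 were higher (median -0.13). With 1 library left out, the lower calls ran from 5 to 10 in translation factors and from 18 to 42 in cytosolic ribosomal proteins, in both with the highest number without EGFP replicate 3, and the lowest numbers came without EGFP replicate 2 and without OmoMYC replicate 3, respectively. The lower calls ran from 3 to 6 in mitoribosomal proteins outside the pattern (6 without EGFP replicate 1), and the higher calls from 0 to 3 in assembly factors (3 without EGFP replicate 3, 0 without OmoMYC replicate 1). No difference between these lists and the MRP genes was tested.

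In parental cells, no MRP gene passed the test under dTAG47 in the main fit, which held no factor for replicates. Of 76 tested members, 0 were lower and 0 were higher by edgeR, against 0.0415% and 0.117% of all 14470 tested genes. An unadjusted edgeR p-value below 0.05 was found in 1 member, against 1053 of the 14470 genes. DESeq2 also called 0. The median log2 fold change was 0.03, with 55 of 76 values positive, against -0.00 for all genes. Summed over the members the level was 4158 to 4274 CPM under DMSO (4221 ± 50.4, SD, n = 4) and 4124 to 4384 CPM under dTAG47 (4292 ± 115, n = 4), with an exact two-sided permutation p of 0.314. The precision was better than in the OmoMYC experiment, with a median standard error of 0.0545 over the tested members against 0.088 there. Among the 71 members with at least 10 CPM under DMSO, log2 fold changes lay between -0.15 and 0.11, with standard errors of 0.04 to 0.08.

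MRPL53 was the tested member with the lowest p-value and the only tested one whose groups did not overlap, where 3.34% of all genes had groups apart. It was at 2.35, 2.87, 2.83 and 2.39 CPM under DMSO and 1.60, 2.25, 2.05 and 1.93 CPM under dTAG47, a log2 fold change of -0.40 ± 0.13 (edgeR FDR = 0.619). Nearly all of its exon bases (99.2%) are shared with CCDC142 on the same strand, so reads of these genes may have been divided between them or dropped. MRPL19, the homologue of bacterial L19, was at 41.2, 42.3, 36.5 and 34.5 CPM under DMSO and 36.6, 38.4, 32.9 and 31.4 CPM under dTAG47 (log2 fold change -0.15 ± 0.07, edgeR FDR = 0.673). MRPS30 was at 122, 121, 111 and 112 CPM under DMSO and 108, 120.4, 103 and 96.4 CPM under dTAG47 (-0.12 ± 0.06, edgeR FDR = 0.673). In both genes replicates 1 and 2 were above replicates 3 and 4 within each group. With a factor for these pairs of replicates, MRPL19 and MRPS30 were lower (edgeR FDR = 0.0223 and 0.0318), where 2.9% of all genes were lower. In that fit 0 members were higher, where 2.58% of all genes were. Unadjusted edgeR p-values below 0.05 were then found in 22 of 76 members, 7 of them with a fall, against 3091 of 14470 genes.

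In the upward direction, the members of lowest p-value were MRPL28 (68.0 ± 3.02 CPM under DMSO and 73.4 ± 5.80 under dTAG47, log2 fold change 0.11 ± 0.06), MRPL52 (47.8 ± 0.592 and 51.7 ± 4.56 CPM, 0.11 ± 0.06) and MRPL51 (87.4 ± 4.40 and 93.1 ± 3.69 CPM, 0.09 ± 0.05). None was called, and their edgeR FDRs were 0.673 to 0.674. MRPL19 and MRPS30, called lower under OmoMYC, were not called under dTAG47 without a factor for replicates. Among other members called under OmoMYC, log2 fold changes under dTAG47 were below 0 in MRPS9 (-0.10 ± 0.06), MRPL50 (-0.09 ± 0.07) and MRPS6 (-0.07 ± 0.05). They were above 0 in MRPL3 (0.01 ± 0.05), MRPS22 (0.04 ± 0.06), MRPS18C (0.03 ± 0.06), MRPL37 (0.08 ± 0.05) and MRPS12 (0.02 ± 0.08). The same held for MRPL13 (0.02 ± 0.06), MRPL39 (0.03 ± 0.05), MRPS15 (0.06 ± 0.05), MRPL49 (0.0015 ± 0.05) and MRPL54 (0.11 ± 0.06). None of these was called. MRPL12 (0.08 ± 0.07), MRPL44 (0.03 ± 0.05), MRPS18A (0.10 ± 0.06), MRPS18B (0.07 ± 0.05) and MRPS36 (-0.01 ± 0.05) were not called either. The median was 0.03 in the small and 0.04 in the large subunit. Transcript GC also moved with these small values, at a Spearman correlation of 0.584 over the 76 members and 0.468 over 14297 genes. No gene of the 4 lists for mitochondrial translation and none of the 13 mitochondrially encoded mRNAs was called.

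Levels in the controls of the 2 experiments, which were counted in separate tables and are set side by side without a test, were close for most members. Over genes in both tables, the middle 90% of members had a log2 ratio of EGFP to DMSO between -0.47 and 0.45, around a median of 0.06. The members farthest below were MRPS18B, MRPS21 and MRPS36. MRPS18B was at 0.369 ± 0.0781 CPM in EGFP cells and 65.5 ± 1.89 CPM in DMSO cells, from 4 to 14 counts per library in the OmoMYC table. It lies on chromosome 6 at 30585617 to 30594172 of hg19, and of 53 genes of both tables that start between 27585617 and 33594172 of that chromosome, 33 (62.3%) were in EGFP below 0.1 of their DMSO level, against 1.51% of other genes. The low count of MRPS18B was thus shared by most genes around it, and the cause was not tested. MRPS21, a homologue of bacterial S21, was at 23.6 CPM in EGFP and 90.3 CPM in DMSO cells, and MRPS36 at 8.46 and 23.4 CPM. MRPL45, at 102 ± 2.48 CPM under DMSO and 103 ± 2.98 under dTAG47, was matched in the parental table only.

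**Figure D5:**
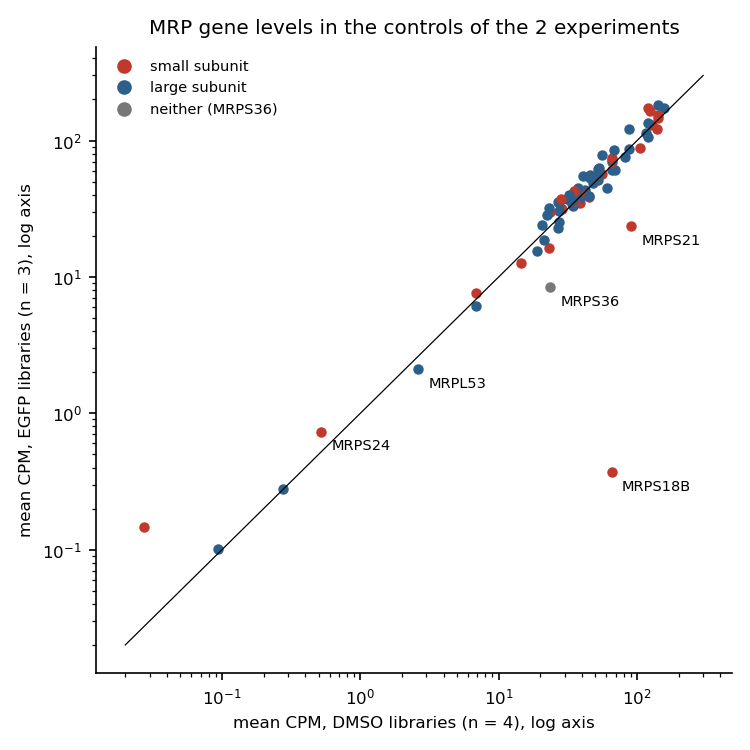
Mean CPM of each MRP identifier in EGFP libraries (n = 3) against DMSO libraries (n = 4), both on log axes, with the line of equal levels; red, small subunit; blue, large subunit; grey, MRPS36. Most points lie along the line, and MRPS18B (0.369 against 65.5 CPM), MRPS21 (23.6 against 90.3) and MRPS36 (8.46 against 23.4) lie below it.

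A few members could hardly be measured at all. MRPL30 had 3 to 12 counts per library in the OmoMYC table and was not tested there. In parental cells it was tested from 8 to 22 counts per library, at a log2 fold change of 0.04 ± 0.32. MRPS24, with 90.9% of its exon bases shared with the readthrough gene URGCP-MRPS24, was at 0.732 ± 0.226 CPM under EGFP and 0.794 ± 0.0985 under OmoMYC (log2 fold change 0.13 ± 0.29, not called). Further identifiers of MRPS17, MRPL30, MRPS18B and MRPS36 had between 0 and 14 counts per library and failed the filter. In all, 10 tested members shared over 50% of their exon bases with another protein-coding gene, of which 4 were lower and 0 higher under OmoMYC, whereas 30 of the 64 others were lower and 3 higher.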

How the data were processed

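RNA was depleted of ribosomal RNA before library preparation. The authors used Cutadapt for trimming, STAR for alignment to hg19 and featureCounts for assignment to genes, and deposited raw counts per gene, 1 table for each experiment. Annotation, strand setting and treatment of reads shared by genes are not given in the sources used here. The authors named DESeq2 for their tests.

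Counts were analysed in R 4.3.3 with edgeR 4.0.16 (filterByExpr, TMM, robust quasi-likelihood test, FDR 0.05 over all tested genes), separately for each table. Alternatives used DESeq2 1.42.0, limma 3.58.1, other scalings and filters, a replicate block, a GC and length trend removed from each library (spline of 5 degrees of freedom), and each library left out in turn. Coordinates, length and GC come from GENCODE lifted to GRCh37, and 98.8% or more of tested genes had a length and GC. Scripts were tested on simulated data.

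The members and lists were chosen with earlier results of these data known. Named genes were the called members of largest change whose groups did not overlap (8 in each direction at most), the 4 highest and 2 lowest per length, the smallest p-values in parental cells, fixed members of known role, and the 2 largest called changes of each list in each direction, of which 1 is not reported here. MRPL22, MRPL42, MRPL45, MRPS21, MRPL17 and MRPL30 were named after their values were seen, as were the further lower members, members lost in an alternative and the ends of ranges.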

Additional observations from a re-analysis of the deposited data

Results flagged for a closer look

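In 34 groups of 4 parental libraries, each of a named member, 3 held a library far from the others by Dixon's test at the 95% level, where chance gives about 1 in 20. MRPL51 was at 80.9 CPM in DMSO replicate 1 against 89.0 to 90.2 in the other DMSO libraries. MRPL37 was at 135.0 CPM in dTAG47 replicate 2 against 154 to 158 in the others. MRPS36 was at 22.0 CPM in dTAG47 replicate 4 against 23.7 to 24.0 in the others.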

How the results depend on the processing

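Over 15 alternatives of the OmoMYC comparison, 27 to 50 members were lower, 2 to 5 were higher and the median log2 fold change was -0.25 to -0.18. Leaving out each library in turn gave 27 to 39 lower and 2 to 5 higher calls and medians from -0.25 to -0.20, with EGFP replicate 3 left out giving 5 higher and -0.25. In all of these 6 fits the same 24 members were lower and the same 2, MRPL49 and MRPL54, were higher. With the GC and length trend removed, MRPS12 reversed to -0.077 and MRPL12 to -0.14. In parental cells, 0 members were called under 17 of 20 alternatives. The exceptions were the replicate block and the factor for replicate pairs (2 lower in each, MRPL19 and MRPS30) and replicates 3 and 4 alone (2 lower and 3 higher), while replicates 1 and 2 alone gave 0. Same-numbered libraries correlated at -0.07 to 0.293 in the OmoMYC experiment and 0.009 to 0.159 in the parental one, so the numbers were not taken as pairs. The parental libraries were nonetheless split into replicates 1 and 2 and replicates 3 and 4. DMSO and dTAG47 libraries correlated at 0.009 to 0.247 within these pairs of replicates and at -0.226 to -0.019 across them. The main fit held no factor for this split. A replicate block gave 35 lower and 4 higher members under OmoMYC. Of all 14470 genes in parental cells, the block called 362 lower and 306 higher, and the pair factor 420 and 374. The main fit called 6 and 17, so it called fewer parental genes than the fits with a replicate factor. Counts were too few in the OmoMYC table to measure MRPS18B, MRPS24 and MRPL30 well, and the cause was not tested. MRPS24 and MRPL30 were also low in parental cells, at 0.517 and 0.274 CPM under DMSO, whereas MRPS18B was at 65.5 CPM there.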
